A study of Mus musculus with 12 samples.

Results

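The mitochondrial solute carriers of the Slc25 family were followed in mouse myelin as it ages. The members were taken by name, as every gene whose symbol is Slc25a and a number, without Slc25a17, which encodes a carrier of peroxisomes. The symbols gave 44 genes and, without that exception, 43 members of the 21937 genes measured. Myelin was the light membrane fraction prepared from the brains of male wild-type c57Bl6/N mice, with no treatment or altered allele in any group, at postnatal day 18 (P18), postnatal day 75 (P75), 6 months and 24 months. Each age had 3 RNA-Seq libraries, 12 in all. The 6-month libraries came from separate mice. Whether this was so at the other ages was not given in the sources used here, so the p-values measure the spread between libraries. The fraction is from whole brain and is enriched for myelin rather than pure, so the RNA can also come from cell bodies, axons and other cells.

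Values are normalized read counts, the reads on a gene divided by a size factor for the library, and are not corrected for transcript length. The libraries held 20299052 to 27214385 reads on genes, and Mbp, which encodes myelin basic protein, took between 4.76% and 20.78% of them. The share was 15.07%, 20.78% and 9.47% in P18 replicates 1, 2 and 3, and replicate 3 also had the lowest summed count of the 8 oligodendrocyte and myelin markers at P18, 2466076 against 4204355 and 6178720. All 8 of those markers passed the filter on low values, whereas 4 of the 9 red blood cell markers, the hemoglobin genes, were listed at 0 in every library. A gene was tested when its mean over the 12 libraries was at least 10, and it was called changed at a Benjamini-Hochberg adjusted p under 0.1 from 1 limma fit over all libraries. Changes are log2 differences on the log2(normalized read count + 1) scale, later age minus earlier age, with the standard error (SE).

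Most Slc25 proteins sit in the inner mitochondrial membrane and carry nucleotides, phosphate, carboxylic acids, amino acids, cofactors or protons between the cytosol and the matrix. They are encoded in the nucleus, made on cytosolic ribosomes and inserted through the TOM and TIM22 import machinery. In the brain they serve oxidative phosphorylation, the malate-aspartate shuttle that moves reducing equivalents into mitochondria, and the export of citrate, from which the cytosol makes acetyl-CoA for fatty acid and cholesterol synthesis, both of them building materials of the myelin membrane.

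The 43 members taken by symbol, called the family here, together took a lower share of the reads at 24 months than at P18. They held 0.369%, 0.335% and 0.447% of the reads in the P18 libraries. The P75 libraries gave 0.339%, 0.362% and 0.336%, the 6-month libraries 0.315%, 0.298% and 0.318%, and the 24-month libraries 0.277%, 0.291% and 0.303%. The P18 and P75 libraries overlapped, the P75 libraries all lay above the 6-month libraries, and the 6-month and 24-month libraries overlapped. The means were 0.384% ± 0.057, 0.346% ± 0.015, 0.310% ± 0.011 and 0.290% ± 0.013 (SD, n = 3). Between P18 and 24 months the difference was -0.093 percentage points, with a two-sided exact permutation p = 0.1, the smallest that 3 against 3 libraries allow. With Mbp left out of the total, the shares were 0.451%, 0.366%, 0.331% and 0.310%. In the 12 libraries Slc25a4, Slc25a3 and Slc25a5 made up between 56.81% and 64.5% of the family's reads. Without these 3 genes the members' summed normalized read counts were 35761 to 38131 at P18, 27391 to 29243 at P75, 29517 to 30551 in the 6-month libraries and 27480 to 28846 in the 24-month libraries. The sum of the other members thus lay higher at 6 months than at P75, without overlap (1584 more, two-sided exact permutation p = 0.1), so the lower family sum at 6 months came with lower mean counts of Slc25a4, Slc25a3 and Slc25a5. Of all 38 tested members, 16 were called lower and 8 higher in this step, beside 29.4% and 31.2% of all genes. Slc25a23 and Slc25a22 were among the 8, with means going from 3605 to 5079 and from 2099 to 2989. In bulk RNA, fewer cells or mitochondria-rich compartments in the fraction and less RNA in each cannot be told apart.

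Of the 43 members, 38 passed the filter on low values. The means of 32 members were over 100, those of 15 over 1000, and those of Slc25a4 and Slc25a3 over 10000. The 5 below the filter were Slc25a2, Slc25a31, Slc25a41, Slc25a43 and Slc25a48, which encode an ornithine carrier, an ADP/ATP carrier known from testis, a short ATP-Mg/phosphate carrier and 2 proteins without a firmly assigned substrate. Slc25a2 was the highest of these, with libraries between 2.0 and 12.1. Slc25a31 lay between 0 and 7.74 and Slc25a41 between 0.89 and 5.65. Slc25a43 and Slc25a48 did not exceed 4.32 and 5.69, and Slc25a31, Slc25a43 and Slc25a48 were listed at 0 in at least 1 library. These 5 members were not tested.

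From P18 to P75 more members fell than rose. Of the 38 tested, 20 were called changed (52.6%), against 48.8% of all genes tested. The 14 lower members (36.8%) stood beside a background of 22.9% lower, and the 6 higher members (15.8%) beside 25.9% higher. The median log2 change was -0.11 for the members and 0.015 for all genes. When each library was scaled to the same total instead, 7 members were called higher and 7 lower, and the medians became 0.019 and 0.14. Of all genes 44.9% were then called, and 72.2% of those calls were higher. Without this scaling the share of members called was near the background. The split between directions was not tested against that of all genes. The libraries of both ages did not overlap in 19 members, against 47.7% of all genes.

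From P75 to 6 months 24 members were called changed (63.2%), against 60.6% of all genes. The 16 lower members made 42.1%, beside 29.4% of all genes, and the 8 higher members 21.1%, beside 31.2%. The median log2 change was -0.16 for the members and 0.005 for all genes, and the libraries of 27 members did not overlap, against 63.1%. Between 6 and 24 months 10 members were called (26.3%), against 29.3% of all genes, with 6 higher and 4 lower, and the medians were 0.039 and 0.028. No overlap was seen in 17 members, against 43.5%, and 0 members were called with a 2-fold change, against 1.68%. After scaling to the same total, this comparison gave 3 higher and 4 lower. Of all genes 20.6% were then called, and 46.3% of those calls were higher. Without P18 replicate 3, which enters the fit only through the shared estimate of the spread, it gave 15 called members, 8 higher and 7 lower, and 36.4% of all genes were then called.

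Over the whole span, from P18 to 24 months, 26 members were called (68.4%), against 69.0% of all genes. The 19 lower members stood beside 34.3% of all genes, and the 7 higher members 18.4%, beside 34.7%. The median was -0.26 for the members and -0.01 for all genes, and 25 members did not overlap, against 66.6%. Quantile normalization gave 4 higher and 23 lower members, with medians of -0.33 and -0.12. With it 70.6% of all genes were called, and 42.4% of those calls were higher. Among the 38 tested members 21 (55.3%) had their highest mean at P18, compared with 32.8% of all genes tested. The lowest mean was at 6 months in 16 members, and the matching share of all genes was not computed. Changes were mostly modest. The ratio of the highest to the lowest age mean had a median of 1.49 over the members and 1.59 over all genes tested, and it was over 2 in 4 members.

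**Figure D1:**
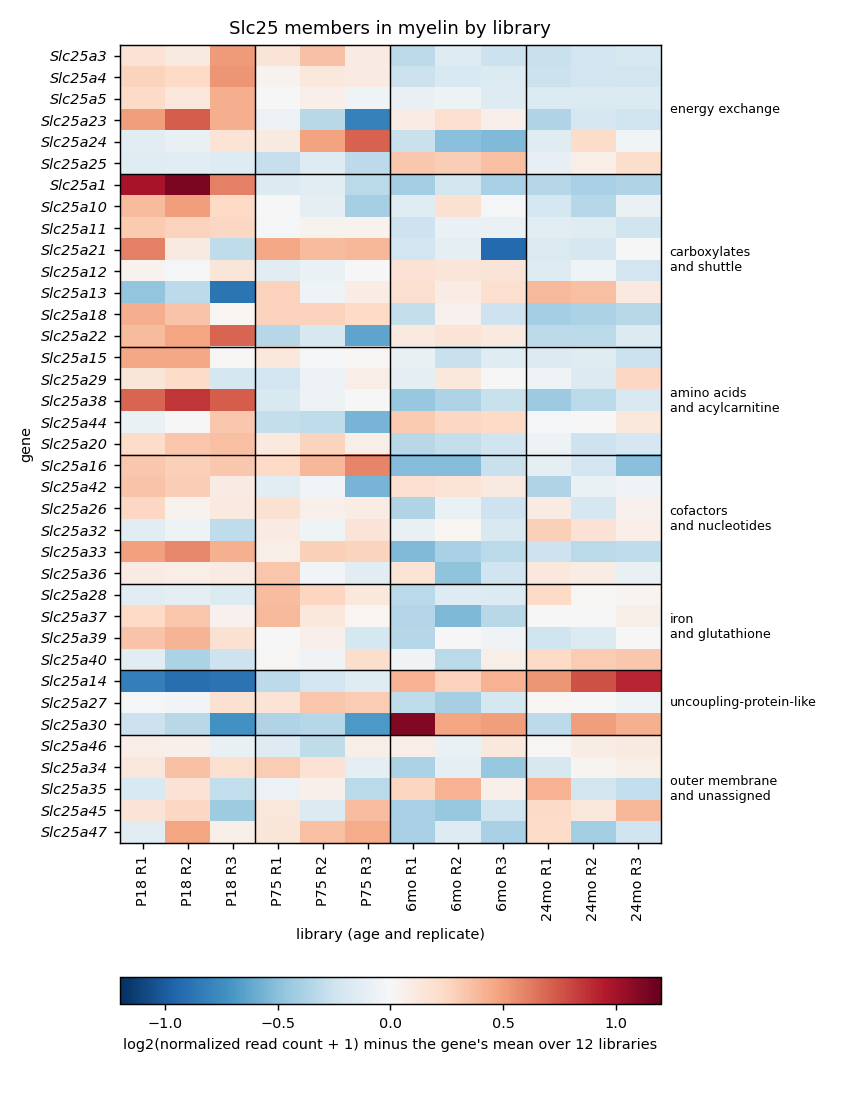
Each row is 1 of 37 tested members, ordered by role, and each column 1 library. The colour is log2(normalized read count + 1) minus the gene's mean over the 12 libraries. Slc25a1 and Slc25a38 are high in the 3 P18 libraries, and Slc25a14 goes from low at P18 to high at 24 months.

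**Figure D2:**
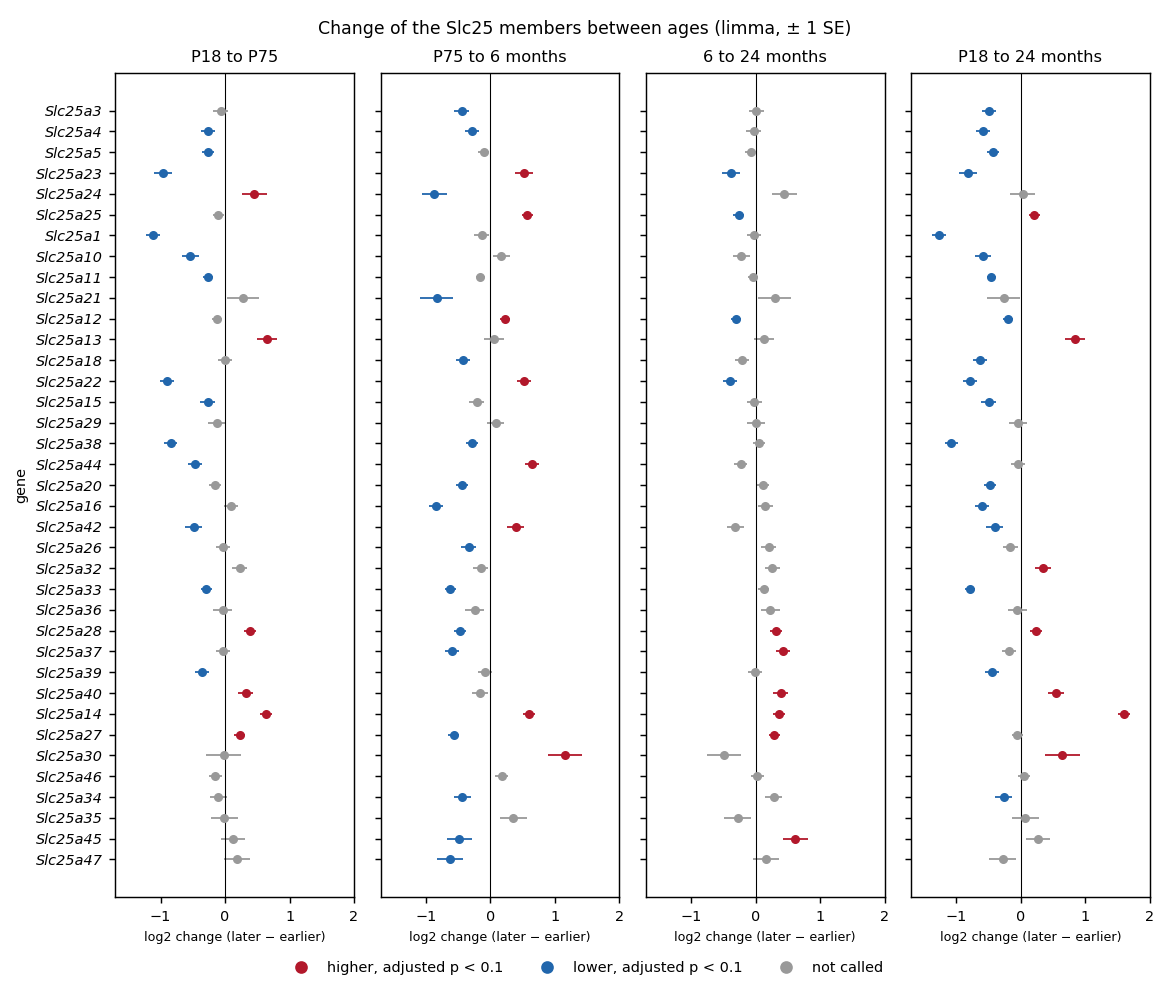
The 4 panels give each comparison for 37 tested members, with the log2 change (later minus earlier age) on the horizontal axis, bars of ± 1 SE from limma, and colours for members called higher, called lower or not called. Called falls outnumber called rises, counted over all 38 tested members, in P18 to P75 (14 and 6), P75 to 6 months (16 and 8) and P18 to 24 months (19 and 7), but not in 6 to 24 months (4 and 6). Of all genes, 22.9%, 29.4%, 34.3% and 12.7% were called lower in these comparisons, and 25.9%, 31.2%, 34.7% and 16.6% higher. Scaling to the same total gave 7 lower and 7 higher members in P18 to P75, where 72.2% of all called genes were then higher.

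The consecutive steps combined into several courses, in which neighbouring steps share the libraries of the age between them. Slc25a14 was the one member called higher at all 3 steps. Slc25a22 and Slc25a23 fell, rose and fell again, while Slc25a27 and Slc25a28 were called higher, lower and higher. Slc25a4, Slc25a33 and Slc25a38 fell at the first and second steps. The most frequent courses were a fall at the second step alone, in 8 members (Slc25a3, Slc25a16, Slc25a18, Slc25a20, Slc25a21, Slc25a26, Slc25a34 and Slc25a47), and a fall at the first step alone, in 7 (Slc25a1, Slc25a5, Slc25a10, Slc25a11, Slc25a15 and Slc25a39 among them). The 5 members called at no step were Slc25a29, Slc25a32, Slc25a35, Slc25a36 and Slc25a46. Of all genes, 22.9%, 29.4% and 12.7% were called lower at the 3 steps in turn, and 25.9%, 31.2% and 16.6% higher. The share of all genes with each course was not computed, so the courses cannot be called particular to the members.

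The carriers of energy exchange were the most abundant of the family. Slc25a4 and Slc25a5 encode the ADP/ATP carriers that bring ADP into the matrix and release ATP, and Slc25a3 encodes the phosphate carrier that feeds ATP synthase. Slc25a4 had normalized read counts of 27630.0, 27057 and 33175 (P18), 23556, 25075 and 24482 (P75), 19152, 20221 and 20480.0 (6 months) and 19142, 19697 and 19719 (24 months). Every P18 library lay above every P75 library, and every P75 library above the 6-month and 24-month libraries, which overlapped each other. The log2 change was -0.26 ± 0.11, adjusted p = 0.067 from P18 to P75, -0.29 ± 0.11, adjusted p = 0.0345 from P75 to 6 months and -0.58 ± 0.11, adjusted p = 0.000213 from P18 to 24 months (limma). For Slc25a5 the counts were 11551, 10849 and 13286 (P18), 9787, 10299 and 9510.5 (P75), 9247, 9432 and 8839.7 (6 months) and 8744, 8751 and 8805 (24 months). The fall from P18 to P75 was called (-0.27 ± 0.092, adjusted p = 0.0302, limma), the next was not (-0.10 ± 0.092, adjusted p = 0.354), and from P18 to 24 months the change was -0.43 ± 0.092, adjusted p = 0.000635. Slc25a3 had 14663, 14006 and 18511 (P18), 14438, 16518 and 13907 (P75), 10430.0, 11664 and 10843 (6 months) and 10791, 11082 and 11386 (24 months). It did not separate P18 from P75 (-0.066 ± 0.11, adjusted p = 0.673, limma), and its called fall came between P75 and 6 months (-0.44 ± 0.11, adjusted p = 0.00373).

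In these 3 genes P18 replicate 3 was the highest of all libraries. Without it the changes from P18 to P75 were -0.17 for Slc25a4 and -0.18 for Slc25a5, and neither was called. Slc25a4 also lost its call without P75 replicate 1 (-0.235) or P75 replicate 3 (-0.26), with no filter on low values and in the fit of P18 and P75 alone. Scaled to the same total, the values were -0.13 and -0.14, also without a call. The fall of Slc25a4 from P75 to 6 months was not called after quantile normalization (-0.11). From P18 to 24 months both stayed called with each library left out in turn. P18 replicate 3 had the lowest Mbp share and the lowest myelin marker sum of its age, and the highest neuron marker sum of its age, 222348 against 192016 and 181498. Their part in the result was not tested.

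The ATP-Mg/phosphate carriers, which are regulated by calcium and set the amount of adenine nucleotides in the matrix, did not move together. Slc25a23 had 6627, 7758 and 6307 (P18), 4447, 3709 and 2659 (P75), 4967, 5381 and 4889.9 (6 months) and 3645, 4065 and 3966 (24 months). The P18 libraries lay highest, the P75 libraries spread the widest, and the 6-month libraries lay above those at P75 and 24 months. It fell from P18 to P75 (-0.96 ± 0.14, adjusted p = 6.60e-05), rose to 6 months (0.53 ± 0.14, adjusted p = 0.00491) and fell to 24 months (-0.38 ± 0.14, adjusted p = 0.0631, limma). The last call was lost without either 6-month replicate 1 or 2 or without any 1 of the 24-month libraries, with values between -0.42 and -0.34. Slc25a25 rose from P75 to 6 months, from a mean of 955 ± 54 to 1423 ± 36.5 (SD, n = 3, 0.57 ± 0.085, adjusted p = 4.08e-05, limma). It fell to 24 months (-0.26 ± 0.085, adjusted p = 0.0429), a call lost without 6-month replicates 1 (-0.26) or 3 (-0.24) or 24-month replicates 1 (-0.18) or 2 (-0.27). Slc25a24, of low level, had 44, 45.2 and 54.2 (P18), 52.1, 67.7 and 79.6 (P75), 39.8, 33.7 and 33.1 (6 months) and 43.6, 56.2 and 47.2 (24 months). The 6-month libraries all lay below those at P75 (-0.87 ± 0.19, adjusted p = 0.00127, limma). Its rise from P18 to P75 (0.45 ± 0.19, adjusted p = 0.0702, limma) overlapped between the ages and was lost without P18 replicates 1 (0.40) or 2 (0.42) or P75 replicates 2 (0.43) or 3 (0.31). That call was also lost after quantile normalization (0.343), with DESeq2 on the reads (0.47) and when scaled without Mbp (0.423). The fit of P18 and P75 alone and the fit with no filter on low values did not give it either.

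**Figure D3:**
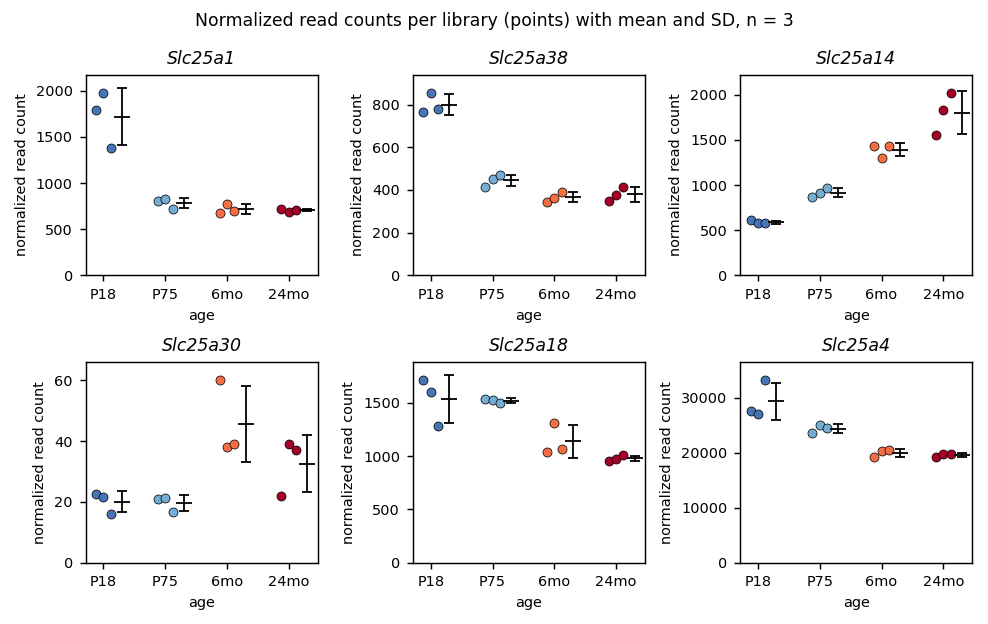
Points are the normalized read counts of single libraries at each age, and the bar beside them gives the mean and SD (n = 3), for 6 members. Each vertical axis starts at 0. For Slc25a1 and Slc25a38 the 3 P18 libraries stand above all others, and for Slc25a14 the ages do not overlap from one step to the next.

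Slc25a1, the mitochondrial citrate carrier, had the largest fall of the family. Its normalized read counts were 1796, 1978 and 1378 (P18), 808, 823 and 722 (P75), 678, 775 and 692 (6 months) and 713, 691 and 705 (24 months). The lowest P18 library was above the highest of the other 9 libraries, and the libraries of the 3 later ages lay close together. The P18 mean was 1717 ± 308 and the P75 mean 784 ± 54.6 (SD, n = 3), a fold of 0.461 with a log2 change of -1.12 ± 0.11, adjusted p = 2.65e-06 (limma). From P75 to 6 months it was -0.13 ± 0.11, adjusted p = 0.331, from 6 to 24 months -0.022 ± 0.11, adjusted p = 0.917, and over the whole span -1.27 ± 0.11, adjusted p = 6.89e-08 (limma). The fall from P18 to P75 stayed called with each library left out, between -1.27 and -1.01. Slc25a1 was the 1 member called with a fold of at least 2 in that comparison, where 4.54% of all genes were. At P18 it was highest in replicate 2 and lowest in replicate 3, the same order as the Mbp share and the myelin marker sum. Their part in the result was not tested.

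Slc25a38, which encodes a glycine carrier known for its place at the start of heme synthesis, fell in a like way. The libraries held 765, 855 and 778 (P18), 415, 452 and 468 (P75), 342, 364 and 390.2 (6 months) and 348, 375 and 416 (24 months). The P18 libraries lay above all others, every P75 library lay above every 6-month library, and the 6-month and 24-month libraries overlapped. The change was -0.84 ± 0.096, adjusted p = 7.87e-06 from P18 to P75, -0.28 ± 0.096, adjusted p = 0.0207 from P75 to 6 months and -1.07 ± 0.096, adjusted p = 8.05e-08 from P18 to 24 months (limma), all called with each library left out. Alas2, the heme synthesis enzyme of red blood cells and 1 of the 2 red blood cell markers that were tested, moved alongside, from 416 ± 55.1 at P18 to 41.1 ± 4.32 at P75 (SD, n = 3, -3.30 ± 0.21, adjusted p = 4.55e-08, limma). The summed red blood cell markers were 409.0 to 556 at P18 and 38.2 to 70.1 in the later libraries. Their part in the fall of Slc25a38 was not tested.

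Slc25a14, an uncoupling-protein-like carrier first known from the brain, went the other way. Its libraries held 608, 574 and 582 (P18), 865, 916 and 971 (P75), 1435, 1306 and 1438 (6 months) and 1552, 1830.5 and 2024 (24 months). No library of one age overlapped with the next, and the 24-month libraries spread more than the P18 libraries. The changes were 0.64 ± 0.095, adjusted p = 7.64e-05 from P18 to P75, 0.60 ± 0.095, adjusted p = 7.25e-05 in the step to 6 months and 0.36 ± 0.095, adjusted p = 0.0154 in the step to 24 months (limma). From P18 to 24 months the fold was 3.04 and the log2 change 1.61 ± 0.095, adjusted p = 1.03e-09 (limma). All 4 calls held with each library left out and under each other setting tried. Microglia markers also rose with age, with a summed count of 3103 to 3924 at P18 and 6944 to 8285 at 24 months. Over that span 7 of 8 were called higher, where 34.7% of all genes were. Of 10 neuron markers 4 were higher and 4 lower, and of 8 astrocyte markers 4 were higher and 2 lower. The part of any of these markers in the rise of Slc25a14 was not tested.

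Slc25a1, Slc25a38 and Slc25a14 were the 3 members called with at least a 2-fold change from P18 to 24 months, where 18.4% of all genes tested were. Their promoters are shown as the 250 bases before the annotated start, 5′ to 3′ on the strand of the gene, from RefSeq on GRCm38.p6, a later build than the mm9 of the reads. They lie at chr16:17928220-17928469 (minus strand), chr9:120110132-120110381 (plus strand) and, for the start of Slc25a14 farthest upstream, chrX:48623198-48623447 (plus strand). Capitals mark matches, on either strand, to GGGCGG, the core bound by SP1, and CCGGAAG, the core bound by ETS factors.
Slc25a1: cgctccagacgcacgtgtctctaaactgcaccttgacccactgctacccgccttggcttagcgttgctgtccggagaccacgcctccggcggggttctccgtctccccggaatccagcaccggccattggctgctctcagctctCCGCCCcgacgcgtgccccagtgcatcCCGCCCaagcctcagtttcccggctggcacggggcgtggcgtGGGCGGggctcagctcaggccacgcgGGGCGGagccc
Slc25a38: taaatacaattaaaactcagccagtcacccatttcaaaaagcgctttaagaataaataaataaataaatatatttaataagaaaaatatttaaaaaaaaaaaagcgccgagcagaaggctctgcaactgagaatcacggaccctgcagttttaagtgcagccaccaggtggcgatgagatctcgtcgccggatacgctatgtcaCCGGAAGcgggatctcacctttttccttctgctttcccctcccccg
Slc25a14: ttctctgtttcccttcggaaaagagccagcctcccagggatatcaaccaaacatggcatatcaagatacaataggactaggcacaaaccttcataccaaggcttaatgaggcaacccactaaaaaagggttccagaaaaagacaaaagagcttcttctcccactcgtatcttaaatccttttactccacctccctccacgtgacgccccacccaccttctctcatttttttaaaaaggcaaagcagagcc
Slc25a1 held 4 SP1 matches, Slc25a38 held 1 ETS match, and the Slc25a14 window shown held none of either. The windows of the other Slc25a14 starts, farther downstream, each held 1 SP1 match.

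Promoters were listed for 33 of the 43 members. In these windows GGGCGG was found for 23 (69.7%), against 35.4% of the 27025 genes with a listed promoter, and CCGGAAG for 4 (12.1%, against 7.8%). The NRF1 motif was found for 2 (6.1%, against 4.2%), the ERR half-site AAGGTCA for 1 (3.0%, against 4.7%), the sterol response element TCACNCCAC for 1 (3.0%, against 1.2%) and TATAAA for 2 (6.1%, against 14.3%). A gene with several starts counted when any of its windows matched, motifs were searched on both strands, and no match in the sequences shown overlapped another. The median GC content was 59.6% in the members' windows and 52.8% in all. A match is a string of letters, not a measured binding site.

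Of the 8 carboxylate and shuttle carriers, 4 fell and 1 rose from P18 to P75, where 22.9% of all genes were called lower and 25.9% higher. Slc25a11, the oxoglutarate-malate carrier of the malate-aspartate shuttle, had 3259, 3177 and 3113 (P18), 2585, 2693 and 2689 (P75), 2209, 2483 and 2480.4 (6 months) and 2384, 2372 and 2214 (24 months). The P18 libraries were the highest, and those at P75 lay above all 6-month and 24-month libraries. The fitted change of Slc25a11 was -0.26 ± 0.076, adjusted p = 0.0116 from P18 to P75 and -0.46 ± 0.076, adjusted p = 7.08e-05 from P18 to 24 months (limma), while the step from P75 to 6 months, -0.15 ± 0.076, adjusted p = 0.1, just missed the threshold. Scaled to the same total, the first of these was -0.14 and not called. Slc25a10, the dicarboxylate carrier, went from 398 ± 36.1 to 275 ± 38.7 (SD, n = 3) between P18 and P75 (-0.54 ± 0.13, adjusted p = 0.00289, limma). Slc25a21, the oxodicarboxylate carrier of lysine and tryptophan breakdown, had 49.9, 35 and 26.1 (P18), 45.1, 42.6 and 43.1 (P75), 27.6, 30.2 and 16.5 (6 months) and 28.7, 28.1 and 32.4 (24 months). It fell between P75 and 6 months (-0.83 ± 0.26, adjusted p = 0.0116, limma), with no overlap of those libraries but a wide spread at P18.

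The aspartate-glutamate carriers Slc25a12 and Slc25a13, the other transporter of the malate-aspartate shuttle, differed in direction. Slc25a12, the form known from brain and muscle, had 2669, 2547 and 2866 (P18), 2362, 2440.3 and 2585 (P75), 2909, 2856 and 2876 (6 months) and 2328, 2491 and 2218 (24 months). The 6-month libraries lay above those at P75 and 24 months. It rose from P75 to 6 months (0.23 ± 0.078, adjusted p = 0.022), which was 0.22 and not called when scaled to the same total, and fell to 24 months (-0.30 ± 0.078, adjusted p = 0.0159, limma). Its change from P18 to 24 months (-0.20 ± 0.078, adjusted p = 0.0348, limma) lost its call without P18 replicate 3 (-0.15) or 24-month replicate 3 (-0.16). Slc25a13, the form known from liver, was far lower, at 74.9, 83.6 and 56.2 (P18), 126, 100.1 and 111 (P75), 119, 111 and 119.7 (6 months) and 137, 134 and 113 (24 months). All P18 libraries lay below all others. The change was 0.66 ± 0.16, adjusted p = 0.00337 from P18 to P75 and 0.84 ± 0.16, adjusted p = 0.0002 from P18 to 24 months (limma).

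Slc25a18 and Slc25a22 encode the glutamate carriers, of which the first is known from astrocytes. Slc25a18 had 1714, 1603 and 1282 (P18), 1537, 1529.8 and 1497 (P75), 1035, 1314 and 1065 (6 months) and 954, 972 and 1007 (24 months). P75 libraries were tightly grouped and above all 6-month libraries, and P18 replicate 3 lay below the other P18 libraries. It fell from P75 to 6 months (-0.43 ± 0.11, adjusted p = 0.00337) and from P18 to 24 months (-0.64 ± 0.11, adjusted p = 7.85e-05, limma). Of the 8 astrocyte markers, 2 were called higher and 1 lower from P75 to 6 months, where 31.2% and 29.4% of all genes were. Their summed count was 104021 to 109932 and 99062 to 111080 at these ages. The part of these markers in the fall of Slc25a18 was not tested. Slc25a22 had 3551, 3782 and 4420.5 (P18), 2155, 2388 and 1754 (P75), 2948, 3058 and 2961 (6 months) and 2198, 2181 and 2438 (24 months). Its P18 libraries were the highest and its 6-month libraries lay above those at P75 and 24 months. The changes were -0.91 ± 0.11, adjusted p = 1.18e-05 from P18 to P75, 0.52 ± 0.11, adjusted p = 0.000776 in the step to 6 months and -0.40 ± 0.11, adjusted p = 0.0192 in the step to 24 months (limma). Its course thus had the same calls as that of Slc25a23, and these held with each library left out for Slc25a22.

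Among the other amino acid carriers, Slc25a44, a carrier of branched-chain amino acids, had 1225, 1294 and 1622 (P18), 1063, 1047 and 880.0 (P75), 1609, 1537 and 1532 (6 months) and 1281, 1289 and 1418 (24 months). The P75 libraries were below all others. It fell from P18 to P75 (-0.46 ± 0.10, adjusted p = 0.00218) and rose to 6 months (0.65 ± 0.10, adjusted p = 8.70e-05, limma). Slc25a20, the carnitine-acylcarnitine carrier that brings fatty acids in for oxidation, was 385 ± 27.6 at P75 and 284 ± 9.24 at 6 months (SD, n = 3, -0.43 ± 0.095, adjusted p = 0.00116, limma). Slc25a15, the ornithine carrier, fell over the whole span (-0.50 ± 0.12, adjusted p = 0.00168, limma), while its call from P18 to P75 (-0.27 ± 0.12, adjusted p = 0.0816) was lost without any 1 of 5 libraries, P18 replicates 1 and 2, P75 replicates 2 and 3 and 24-month replicate 2, with values from -0.27 to -0.20. That call was also lost when scaled to the same total (-0.145), with no filter on low values and in the fit of P18 and P75 alone. Slc25a29, a basic amino acid carrier, was not called in any comparison and lay between 218 and 305.

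Of the 7 carriers of cofactors and nucleotides, 3 fell from P18 to P75 and none rose, where 48.8% of all genes were called. From P75 to 6 months, where 60.6% of all genes were called, 3 fell and 1 rose. None was called from 6 to 24 months, where 29.3% of all genes were. Slc25a16, linked to coenzyme A in the matrix, had 1212, 1185 and 1214 (P18), 1141, 1278 and 1457 (P75), 677, 674 and 805 (6 months) and 895, 825 and 682 (24 months). The 6 libraries of P18 and P75 all lay above the 6 of 6 and 24 months. It fell from P75 to 6 months (-0.84 ± 0.11, adjusted p = 1.42e-05, limma). Slc25a42, a coenzyme A carrier, fell to P75 (-0.49 ± 0.13, adjusted p = 0.00788) and rose to 6 months (0.40 ± 0.13, adjusted p = 0.0196, limma), the rise being 0.24 and not called without P75 replicate 3. Slc25a33, a pyrimidine nucleotide carrier, fell at both steps, from 1886 ± 99.1 at P18 to 1547 ± 123 at P75 and 1003 ± 70.7 at 6 months (SD, n = 3, -0.29 ± 0.085, adjusted p = 0.0123 and -0.62 ± 0.085, adjusted p = 1.80e-05, limma). The first of these was -0.163 and not called when scaled to the same total. Slc25a26, the S-adenosylmethionine carrier, fell from P75 to 6 months (-0.34 ± 0.11, adjusted p = 0.0184, limma). Slc25a32, a carrier of folate and FAD, was not called at a single step but was higher at 24 months than at P18 (0.34 ± 0.12, adjusted p = 0.0189, limma), a call that quantile normalization did not give (0.14).

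The mitoferrins Slc25a28 and Slc25a37, which bring iron into mitochondria, were both low at 6 months. Slc25a28, the widely expressed form, had 492, 503 and 483 (P18), 699, 647 and 591 (P75), 434, 487 and 482 (6 months) and 640.0, 548 and 554 (24 months). The P75 libraries lay above those of P18 and 6 months. It rose to P75 (0.39 ± 0.094, adjusted p = 0.00371), fell to 6 months (-0.46 ± 0.094, adjusted p = 0.000648) and rose to 24 months (0.31 ± 0.094, adjusted p = 0.0313, limma), but the last call was lost without 6-month replicate 1 (0.26) or 24-month replicate 1 (0.24) and when scaled to the same total (0.27). Slc25a37, the form needed by red cell precursors, had 529, 566 and 463 (P18), 588, 488 and 455 (P75), 350.2, 307 and 356 (6 months) and 446, 448 and 470.2 (24 months). All 6-month libraries were below all others. It did not differ detectably between P18 and P75 (-0.028 ± 0.11, adjusted p = 0.858), fell to 6 months (-0.59 ± 0.11, adjusted p = 0.000324) and rose to 24 months (0.43 ± 0.11, adjusted p = 0.0141, limma). Both tested red blood cell markers, of 9 listed, were called lower from P18 to P75, as were 22.9% of all genes, and Slc25a37 was not called. The part of red blood cells in the course of Slc25a37 was not tested.

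Slc25a39 and Slc25a40, linked to glutathione import, moved apart. Slc25a39 fell from 1684 ± 132 at P18 to 1315 ± 129 at P75 (SD, n = 3, -0.36 ± 0.11, adjusted p = 0.0138, limma), which was -0.23 and not called after scaling to the same total. Slc25a40 had 201, 169 and 186 (P18), 223, 215 and 256.5 (P75), 215, 177 and 232 (6 months) and 262, 274 and 278 (24 months). The 24-month libraries lay above all others. It rose from P18 to P75 (0.32 ± 0.12, adjusted p = 0.0444, limma), a call lost without P18 replicate 2 (0.26), without P75 replicate 3 (0.24) or after quantile normalization (0.243). It also rose from 6 to 24 months (0.39 ± 0.12, adjusted p = 0.0345, limma), a call lost without 6-month replicate 2 (0.28) or when scaled to the same total (0.35). Over the whole span it rose by 0.55 ± 0.12, adjusted p = 0.000877 (limma), called with each library left out. Of the exon sequence of Slc25a40, 32.43% of windows of 32 bases recur elsewhere in the genome, so its reads may be shared with other loci.

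The other uncoupling-protein-like carriers took different courses from Slc25a14. Slc25a30 was low, with 22.6, 21.5 and 16.1 (P18), 21, 21.3 and 16.6 (P75), 60.1, 38.2 and 38.9 (6 months) and 21.8, 38.9 and 37 (24 months). The 6-month libraries lay above all at P18 and P75, and 24-month replicate 1 lay near the younger ages. It rose from P75 to 6 months by a fold of 2.23 (1.16 ± 0.27, adjusted p = 0.00173, limma), the 1 member with a called 2-fold change there, beside 9.31% of all genes. The rise from P18 to 24 months (0.65 ± 0.27, adjusted p = 0.0439, limma) was lost without P18 replicate 3 (0.50), 24-month replicate 2 (0.50) or 24-month replicate 3 (0.53). Slc25a27, known from neurons, was 867 ± 54.8 at P75, 584 ± 38 at 6 months and 715 ± 18.2 at 24 months (SD, n = 3). Its rise from P18 to P75 (0.22 ± 0.088, adjusted p = 0.0531, limma) overlapped between the ages and was lost without P18 replicate 1 (0.19) or 2 (0.185), without P75 replicate 2 (0.19) or 3 (0.205), in the fit of these ages alone (0.22) and when scaled without Mbp (0.19). It fell from P75 to 6 months (-0.57 ± 0.088, adjusted p = 6.42e-05) and rose to 24 months (0.29 ± 0.088, adjusted p = 0.0311, limma), the rise being 0.245 and not called without 6-month replicate 2, and 0.252 and not called when scaled to the same total. In the same step from P75 to 6 months, 6 of the 10 neuron markers were called higher and 3 lower, with sums of 210277 to 241561 and 202141 to 209565. Their part in the result was not tested.

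Of the members at the outer membrane or without an assigned substrate, Slc25a46, which acts in mitochondrial shape, was the most abundant and was not called in any comparison, with libraries between 1776 and 2400. Slc25a45 had 83.2, 89.3 and 55.2 (P18), 82.2, 66.8 and 97.3 (P75), 56.9, 54.1 and 63.2 (6 months) and 88.2, 82.2 and 99 (24 months). The 6-month and 24-month libraries did not overlap. It fell from P75 to 6 months (-0.48 ± 0.19, adjusted p = 0.0443) and rose to 24 months (0.62 ± 0.19, adjusted p = 0.0333, limma). The fall was lost without P75 replicate 3 (-0.35) or 6-month replicate 2 (-0.43), and the rise without 6-month replicate 2 (0.57). Slc25a34 and Slc25a47 fell from P75 to 6 months (-0.44 ± 0.13, adjusted p = 0.0106 and -0.63 ± 0.20, adjusted p = 0.0167, limma), and Slc25a35 was not called.

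Compared per kilobase of merged exon length, the mean levels of the 38 tested members ran from 7.04 to 9895. The exon lengths came from GENCODE vM1 on NCBIM37, the Ensembl name of mm9. Slc25a4 (chr8:47292151-47296638, 4 exons) was highest, at a mean of 9895 normalized read counts per kb, and above every other member in each library. Slc25a5 (chrX:34335646-34338802) followed at 6030 and Slc25a3 (chr10:90579319-90586804) at 2376, then Slc25a11 (chr11:70457698-70460981) at 1244 and Slc25a18 (chr6:120723786-120744000) at 934. Each of the first 4 was above the next in 12 of 12 libraries. Below that the order was not fixed, since Slc25a18 exceeded Slc25a23 (920 per kb) in 4 of 12 libraries and Slc25a33 (732) exceeded Slc25a22 (698) in 7 of 12. Slc25a39, Slc25a14 and Slc25a46 lay at 498, 497 and 494. The lowest tested members were Slc25a35, Slc25a24 and Slc25a21, at 15.7, 14.5 and 7.04.

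By coding length, Slc25a3 was above Slc25a5, and the 5 highest were Slc25a4, Slc25a3, Slc25a5, Slc25a23 and Slc25a22, sharing 3 with the order by exon length. For Slc25a5, 59.05% of exon windows of 32 bases recur elsewhere in the genome, and for Slc25a36, Slc25a35 and Slc25a43 21.38%, 18.17% and 15.75% do. The levels of these genes are uncertain because reads could be shared with copies. Exons of 10 members overlap an exon of another gene on the opposite strand, among them Slc25a10, Slc25a11, Slc25a21, Slc25a23, Slc25a25, Slc25a26, Slc25a33, Slc25a35 and Slc25a46, and none on the same strand. How strand was treated in counting was not given in the sources used here, so reads from such partners (Rnf167 for Slc25a11, for example) cannot be told apart.

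**Figure D4:**
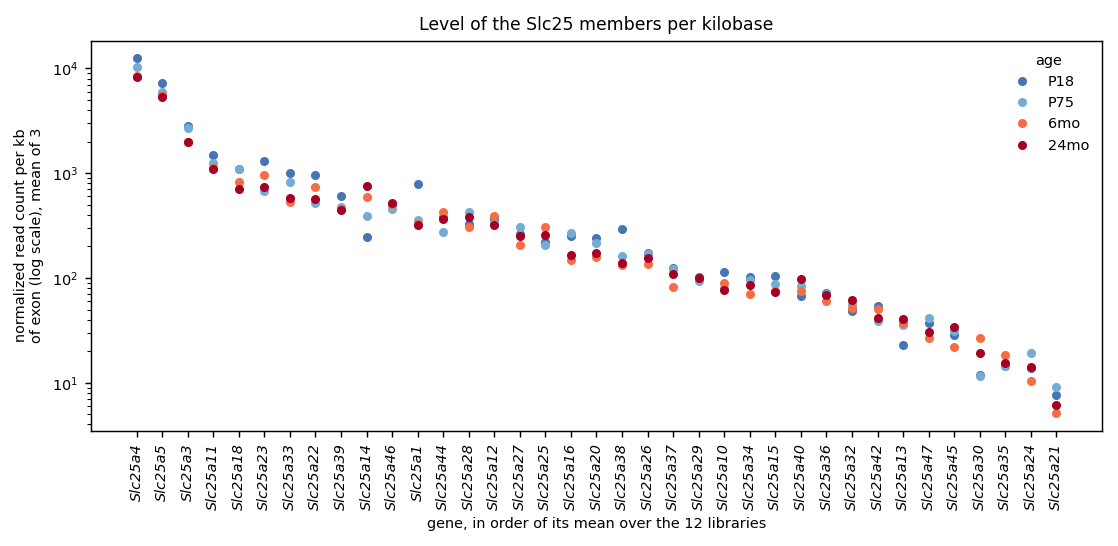
Of the tested members, 37 are ordered along the horizontal axis by their mean normalized read count per kb of exon over the 12 libraries, and the vertical axis, on a log scale, gives the mean of the 3 libraries at each age. Slc25a4, Slc25a5 and Slc25a3 stand above the rest at every age, and Slc25a14 moves up from 249 per kb at P18 to 762 at 24 months while Slc25a1 moves down from 789 to 323.

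Within paired roles the more abundant form was mostly the same at each age. Per kb, Slc25a4 made 63.25% ± 0.57 of the ADP/ATP pair at P18 and 60.9% ± 0.35 at 24 months (SD, n = 3). Slc25a12 made 94.1% ± 1.4 of the aspartate-glutamate pair at P18, with libraries of 92.9% to 95.6%, and 88.7% ± 0.7 at 24 months, with libraries of 87.9% to 89.4%. Slc25a28 made 72.33% ± 1.65 of the mitoferrins at P18 and 77.8% ± 1.8 at 24 months. Slc25a39 made 90.1% ± 1.2 of its pair with Slc25a40 at P18 and 82.1% ± 0.8 at 24 months, and Slc25a33 made 93.3% ± 0.4 of the pyrimidine pair at P18 and 89.3% ± 0.7 at 24 months. In each of these pairs but the glutamate carriers 1 member held over 50% in every library.

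The glutamate carriers were closer to balance. Slc25a22 made 46.8% ± 6.6 of its pair with Slc25a18 (SD, n = 3) at P18, then 31.96% ± 3.12, 47.5% ± 2.7 and 44.28% ± 0.95 at the later ages in turn. The 3 P75 libraries, from 28.6% to 34.8%, lay below all others. Slc25a14 rose against Slc25a27, from 48.8% ± 2.3 of these 2 at P18 through 56.0% ± 1.0 and 74.2% ± 0.6 to 75.04% ± 2.98 at 24 months. Slc25a23 fell against Slc25a25, from 85.4% ± 1.2 at P18 to 76.2% ± 4.4 at P75 and 74.1% ± 1.4 at 24 months.

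**Figure D5:**
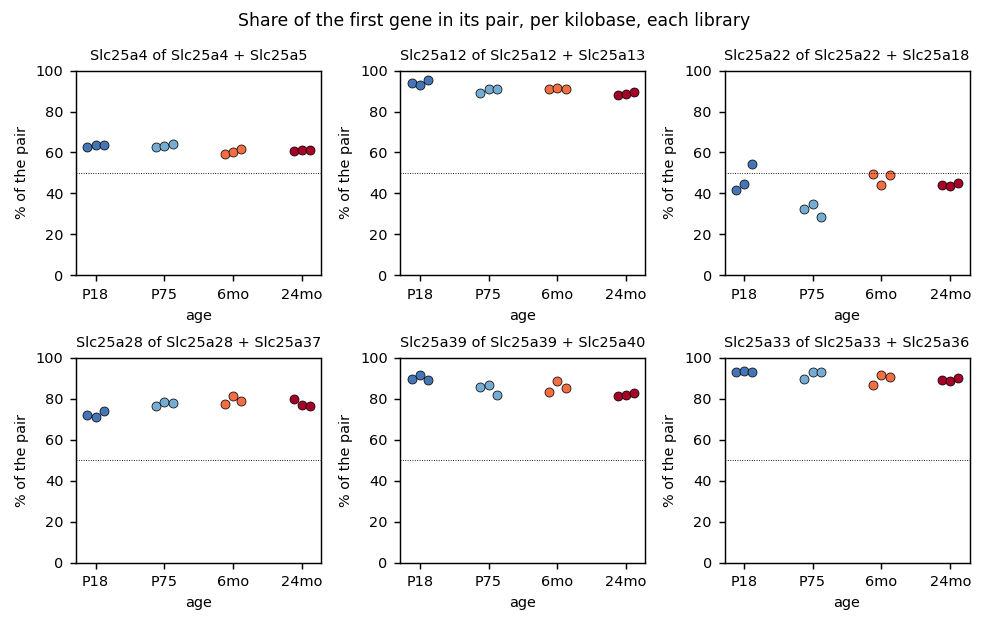
Each panel gives, for every library at each age, the percent of a pair's summed level per kb that belongs to the first gene named, with a dotted line at 50%. Slc25a4, Slc25a12, Slc25a28, Slc25a39 and Slc25a33 stay above the line in all libraries, and Slc25a22 dips to 28.6% to 34.8% at P75.

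Other mitochondrial transport genes were counted beside the family, and each count stands against 48.8%, 60.6%, 29.3% and 69.0% of all genes called in P18 to P75, P75 to 6 months, 6 to 24 months and P18 to 24 months. The members were taken by symbol, so relatives under other symbols can be among these genes. Of 18 tested carriers and channels under other symbols (19 listed), 2 were higher and 9 lower from P18 to P75. The counts were 3 and 9 in the step to 6 months, 3 and 4 in the step to 24 months, and 2 and 13 from P18 to 24 months. The medians were -0.22, -0.17, -0.053 and -0.435. Brp44l and Brp44, which encode the pyruvate carrier subunits Mpc1 and Mpc2, fell from P75 to 6 months (-0.98 ± 0.13, adjusted p = 1.42e-05 and -0.95 ± 0.12, adjusted p = 6.45e-06, limma) and rose to 24 months (0.39 ± 0.13, adjusted p = 0.0455 and 0.50 ± 0.12, adjusted p = 0.00877). Ucp2, an uncoupling protein known from immune cells, went from 961 ± 40.2 at P18 to 452 ± 28.4 at 6 months (SD, n = 3). Ccdc109a, which encodes the calcium uniporter pore Mcu, rose from 51.2 ± 12.2 to 175 ± 31.7 between P75 and 6 months (1.76 ± 0.18, adjusted p = 1.29e-06, limma).

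Read against the same shares of all genes (48.8%, 60.6%, 29.3% and 69.0%), the 15 genes of carrier import had these counts. Of them, 1 was higher and 6 lower from P18 to P75, 1 and 11 in the step to 6 months, 6 and 1 in the step to 24 months, and 1 and 12 from P18 to 24 months, with medians of -0.12, -0.68, 0.21 and -0.49. Timm8b, a small chaperone of the intermembrane space, fell from 4412 ± 744 to 1849 ± 526 (-1.28 ± 0.16, adjusted p = 7.72e-06, limma) and Tomm7 from 4456 ± 595 to 2072 ± 426 (-1.12 ± 0.13, adjusted p = 4.18e-06). Tomm70a, the receptor that binds carrier precursors, rose in this step (0.36 ± 0.091, adjusted p = 0.00321, limma).

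Of the 4 malate-aspartate shuttle enzymes, Got2, the mitochondrial aspartate aminotransferase, went from 2711 ± 127 at P18 through 1513 ± 93.1 and 3826 ± 288 to 2148 ± 152 at 24 months (SD, n = 3). Its changes were -0.84 ± 0.086, adjusted p = 3.02e-06, 1.34 ± 0.086, adjusted p = 2.81e-08 and -0.83 ± 0.086, adjusted p = 4.69e-05 at the 3 steps (limma), which are the same calls as for Slc25a22 and Slc25a23. The 4 enzymes together had 0 higher and 1 lower, 2 and 1, 0 and 2, and, from P18 to 24 months, 0 and 3, beside the same shares of all genes.

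The same shares of all genes called (48.8%, 60.6%, 29.3% and 69.0%) stand beside 12 mitochondrial reference genes of the respiratory chain, citrate cycle and matrix. Of them, 1 was higher and 1 lower from P18 to P75, and 3 and 4 in the step to 6 months. The counts were 2 and 4 in the step to 24 months, and 0 and 5 from P18 to 24 months. These genes had medians of -0.148, 0.015, -0.155 and -0.116. Their summed counts overlapped between all ages, at 133226 to 145561 at P18 and 125465 to 136600 at 24 months. The sum of the Slc25 members was 90043 to 100732 at P18 and 66157 to 68755 at 24 months, without overlap. This was not particular to the members. The carriers and channels under other symbols summed to 69617 to 70724 at P18 and 50063 to 50403 at 24 months. Carrier import gave 31783 to 33289 and 25352 to 26122, and the shuttle enzymes 59592 to 79432 and 51485 to 53201.5, also without overlap.

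The markers of the cell types that a myelin fraction can hold moved with age as well, where 48.8% of all genes were called from P18 to P75 and 69.0% over the whole span. Of 8 oligodendrocyte and myelin markers, 7 were lower from P18 to P75, with a median of -1.202, and 6 were lower from P18 to 24 months. Of 10 neuron markers 2 were higher and 4 lower from P18 to P75, and 4 and 4 from P18 to 24 months. Of 8 astrocyte markers 4 were higher and 2 lower over the whole span. Of 5 endothelial markers 0 were called from P18 to P75, and 3 were higher and 1 lower over the span. Their summed counts were 181498 to 222348 at P18 and 192196 to 202651 at 24 months for neurons, 97541 to 117372 and 98340 to 107368 for astrocytes, and 310.7 to 368 and 311 to 352 for endothelium. The part of these shifts in the changes of the Slc25 members was not tested.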

How the data were processed

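Myelin RNA was sequenced in 12 libraries, 3 at each of 4 ages, and groups were taken from the age label. The authors aligned reads to mm9 with TopHat (version 2.0.8 in the submitters' processing notes), counted them on genes with HTSeq 0.5.4p1 and normalized the counts with DESeq, and this normalized read count is the signal they deposited. All values up to 2000 were whole multiples of 1 read (100%, tolerance 0.0101), which gave the depths and the reads for count tests. Handling of multiply mapped reads and strand was not given in the sources used here. 0 columns lacked a sample.

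The main test was limma 3.58.1 (R 4.3.3, with a mean-variance trend) on log2 values with a pseudocount of 1, over 14634 genes averaging 10 or more, 1 fit over 12 libraries, age only, Benjamini-Hochberg false discovery rate 0.1. Methods were tested on simulated data. Python 3.11.15 with pandas 2.3.3, numpy 2.4.6 and matplotlib 3.10.9 made the other values. Named with every library's value were members called with a fold of at least 2, the 5 highest per kb, and per comparison the 3 largest called rises and falls without overlap; paired roles are given by age mean or library, others by counts, ranges or means. The members and lists were chosen with earlier results of these data known. Libraries of one age differed from each other by 9.2 to 131.2 chi-square units per gene, so none was a repeat deposit.

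Replicate numbers are shared between ages, but the mice differ. Deviations from the age means of same-numbered libraries correlated at -0.026, -0.151 and -0.136 between P18 and P75, at 0.161, 0.101 and 0.187 between P75 and 6 months, at -0.213, -0.07 and -0.06 between 6 and 24 months, and at -0.051, 0.029 and 0.019 between P18 and 24 months. All 3 passed 0.1 in the second case alone. As the mice differ, these correlations do not establish a pairing, and the main fit had no block. Alternatives were pseudocounts of 0.5 and 10, no filter or a mean over 100, fits of only the libraries of the 2 ages, the replicate block, each library left out, a false discovery rate of 0.05, quantile normalization, scaling to the same total, and count tests of the reads by edgeR 4.0.16 and DESeq2 1.42.0. Scaling to the same total without Mbp and the order by coding length were added after seeing the data. Of the tested members, 1 is kept in the fits and counts but is not reported here by itself.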

Additional observations from a re-analysis of the deposited data

How the results depend on the processing

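The counts of called members stayed within 1.5 times of 20, 24, 10 and 26 (P18 to P75, P75 to 6 months, 6 to 24 months, P18 to 24 months). With a library left out they ranged over 15 to 20, 24 to 26, 7 to 15 (15 without P18 replicate 3) and 23 to 26. None of the 80 called changes reversed under any setting, and changes that were not called were not followed. Of the 80, edgeR kept 79, DESeq2 78, scaling to the same total 66, scaling without Mbp 76, quantile normalization 74, and a false discovery rate of 0.05 74, and of 960 refits without a library 909 kept the call. The replicate block left the counts at 20, 24, 10 and 26 and changed none of the 80 calls. Scaling to the same total gave median changes of 0.019 from P18 to P75 and -0.184 from P18 to 24 months, against -0.106 and -0.26; this scaling moved the median of all genes from P18 to P75 from 0.015 to 0.139. The P18 to P75 median ranged from -0.126 to -0.047 with a library left out, the latter without P75 replicate 3. Without Mbp in the total, the family's shares of reads were 0.4505%, 0.366%, 0.3311% and 0.3101%, against 0.3838%, 0.3455%, 0.3102% and 0.2904%. By coding length 3 of the 5 highest members remained. The coding length from a protein table was not run, since that table was not used here. With 3 libraries an age, exact tests cannot go below 0.1, and members under a mean of 10 were not tested.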
